A study of Mus musculus with 16 samples.

Results

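A set of 8 genes of the sterol pathway, Hmgcs1, Idi1, Fdft1, Sqle, Lss, Cyp51, Dhcr7 and Insig1, was followed through a time course of proteasome inhibition. They were chosen by gene symbol as a list of cholesterol synthesis genes and targets of the SREBP transcription factors, and all 8 of 8 were found among the 23356 genes of the deposited tables. The cells were NIH3T3 mouse fibroblasts that stably expressed DD-sfGFP, a destabilizing domain fused to superfolder GFP. Cells of the control group had no stress applied (time 0 min), and the other groups were collected 45, 135 or 405 min after exposure to bortezomib, an inhibitor of the proteasome. Each of the 4 groups held 4 libraries, and all 4 groups carried the DD-sfGFP transgene. The labels state no dose for bortezomib. According to the study's methods, transgene-carrying NIH3T3 cells were sorted for high GFP, with no cloning named, and the medium held bovine serum. The paper states that Shield-1, the ligand that keeps the domain folded, was kept in the medium until its withdrawal. It does not name the bortezomib cultures in this respect. The control was collected at 0 min only, so the drug and the time in culture cannot be told apart. The labels do not say whether replicates were separate cultures, so p-values measure the spread between these libraries, which may be technical.

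As background, cells make cholesterol from acetyl-CoA through mevalonate, isoprenoid diphosphates, squalene and lanosterol. When sterols in the endoplasmic reticulum run low, SCAP carries SREBP-2 to the Golgi, where it is cleaved, and its released part switches on nearly every gene of the pathway together with the LDL receptor. INSIG1, itself a target, holds SCAP back when sterols are plentiful, and both INSIG1 and squalene epoxidase are proteins that the proteasome is known to degrade. Fibroblasts grown with serum take up cholesterol as well as making it.

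The promoters of these genes were searched for DNA elements that the pathway is known for, and those of Hmgcs1 and Idi1 are printed because the counts of these genes are set against each other in what follows. The sequences are from RefSeq (GRCm38.p6) and run from 250 bases before to 50 bases after a start site, 5′ to 3′ on the gene's strand. Entries were matched for 6 of the 8 genes (all except Sqle and Fdft1). Hmgcs1 lies on the plus strand (chr13:119690101-119690400), as does Idi1 (chr13:8885356-8885655). Capitals mark the sterol regulatory element TCACNCCAC and the NF-Y box CCAAT on either strand, where the reverse complements read GTGGNGTGA and ATTGG.
Hmgcs1: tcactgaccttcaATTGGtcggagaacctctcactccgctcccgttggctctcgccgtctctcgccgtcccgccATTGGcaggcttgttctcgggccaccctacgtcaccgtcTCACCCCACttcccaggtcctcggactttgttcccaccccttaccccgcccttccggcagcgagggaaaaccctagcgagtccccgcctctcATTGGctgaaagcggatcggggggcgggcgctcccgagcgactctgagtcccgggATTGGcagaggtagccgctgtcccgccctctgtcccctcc
Idi1: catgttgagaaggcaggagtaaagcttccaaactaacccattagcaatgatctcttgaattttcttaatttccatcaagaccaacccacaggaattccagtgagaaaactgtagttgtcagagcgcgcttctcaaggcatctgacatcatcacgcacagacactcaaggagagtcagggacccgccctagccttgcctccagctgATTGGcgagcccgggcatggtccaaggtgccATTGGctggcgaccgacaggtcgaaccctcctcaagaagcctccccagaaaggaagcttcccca

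A match to TCACNCCAC stood at bases -137 to -129 of the Hmgcs1 start site, on the plus strand, and in no other promoter of these genes in the window and with these letters. Of all 32851 promoters in the RefSeq table, 1.24% held it. The 6 matched genes had 8 promoters in the table. The box CCAAT was found in 6 of the 8 promoters, against 37.4% of all promoters, and Hmgcs1 held 4 matches and Idi1 held 2. The Sp1 box GGGCGG (reverse complement CCGCCC) was found in 7 of the 8, against 35.7% of all promoters. The searched elements did not overlap each other in the Hmgcs1 or Idi1 window. A match describes the letters and does not show that a factor binds there.

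In the mm9 assembly (NCBIM37, GENCODE M1), 7 of the 8 genes were matched by name, each annotated as protein coding. Idi1 lies on chromosome 13 (8884852 to 8891641, plus strand), Fdft1 on chromosome 14 (63763990 to 63796630, minus strand) and Sqle on chromosome 15 (59146632 to 59162747, plus strand). Lss lies on chromosome 10 (75994333 to 76019883, plus strand) and Dhcr7 on chromosome 7 (151009050 to 151034315, plus strand). Cyp51 (4081145 to 4104746, minus strand) and Insig1 (28397952 to 28405201, plus strand) share chromosome 5. A count covers all fragments that the deposited tables assign to the gene, without a split by exon or UTR.

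The libraries stood apart in a way that bears on every value below. Their totals ran from 570323 to 19930375 assigned fragments, a 34.9-fold range. Ribosomal protein genes took 4.25% to 9.42% of the counts in 7 libraries (replicates 1 and 2 at 45 min, the same numbers at 135 min, and replicates 1, 3 and 4 at 405 min). In the other 9 libraries, all 4 controls among them, they took 0.398% to 1.21%. The same 7 libraries had 3430 to 20355 CPM (counts scaled to a common library total) summed over 9 fibroblast markers, with none of the markers at 0, and the 9 had 249.8 to 1609, with up to 2 markers at 0. Markers of macrophages, epithelium and endothelium (4 of each) summed to 0 to 95.3 CPM in the 7 libraries and to 44.3 to 371.7 CPM in the 9. Up to 4 of a list's 4 markers were at 0 in the 7 libraries and up to 2 in the 9. No control library was over 4%, so where the 7 libraries enter a comparison with control, the drug and this difference between libraries cannot be told apart. The treated libraries at or under 4% are also set against control on their own below. Genes of olfactory and vomeronasal receptors (1438 symbols), which belong to sensory neurons, took 4.14% to 5.12% of the counts in the 9 libraries and 0.00531% to 2.61% in the 7. In control replicates 1 to 3 the levels of most sterol genes stood near those of these receptor genes. Divided by the median receptor FPKM of the same library, the 32 control values of the 8 sterol genes had a median ratio of 1.70 (0 to 12.6), and 7 of the 32 were at or under 1. In control replicate 4, with a receptor median of 1.24 FPKM, the ratios of the 8 genes ran from 6.23 to 12.6. In control replicates 1 to 3 they ran from 0 to 5.43. Over the 7 of the 9 libraries whose receptor median was above 0, the median ratio ran from 0.598 for Dhcr7 to 2.29 for Cyp51. Fold changes against control below thus set a level against one that, in control replicates 1 to 3, was near that of the receptor genes. In bulk samples, fewer cells of a type and less RNA per cell cannot be told apart either.

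As a check of treatment, the heat shock gene Hspa1b had 19.7 to 48.8 CPM in control. At 405 min it had 1292 to 10097 CPM, with 4 of 4 libraries above all controls. At 135 min it had 2427 and 770.0 CPM in the libraries over 4%, and 42.1 and 51.1 in the others. At 45 min it had 71.6 and 162.9 CPM in the libraries over 4%, and 12.9 and 52.9 in the others. For this gene the 4 libraries at or under 4% at 45 and 135 min were thus at about the control level. Because Hspa1a next to it is nearly the same in sequence, fragments may be split between the pair in either way. In CPM, the chaperone gene Dnajb1 had 32.4 to 51.9 in control and 49.4 to 797.0 at 405 min. The chaperone gene Hsph1 had 31.6 to 39.5 CPM in control and 205.3 to 5159 at 405 min, and in the same 4 libraries at 45 and 135 min it had 43.5 to 105.2 CPM, above all controls. The heme oxygenase gene Hmox1 had 0 to 30.2 CPM in control and 29.9 to 1828 at 405 min, so its groups overlapped.

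The 8 sterol genes together made up a small part of each library, and that part followed the ribosomal protein share. They took 0.0298%, 0.0464%, 0.0248% and 0.0328% of the counts in control replicates 1 to 4. They took 0.269%, 0.315%, 0.0309% and 0.0213% at 45 min, then 0.218%, 0.177%, 0.0316% and 0.0273% at 135 min. At 405 min they took 0.263%, 0.0531%, 0.122% and 0.233%. All 7 libraries over 4% thus lay at or above 0.122%, and all 9 others at or below 0.0531%, whatever their time. The 95% Wilson intervals were narrow beside this gap, at 0.116% to 0.128% for 405 min replicate 3 and 0.0482% to 0.0585% for 405 min replicate 2. They cover counting error only. The part of the difference between libraries in the sterol gene levels against control was not tested.

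**Figure D1:**
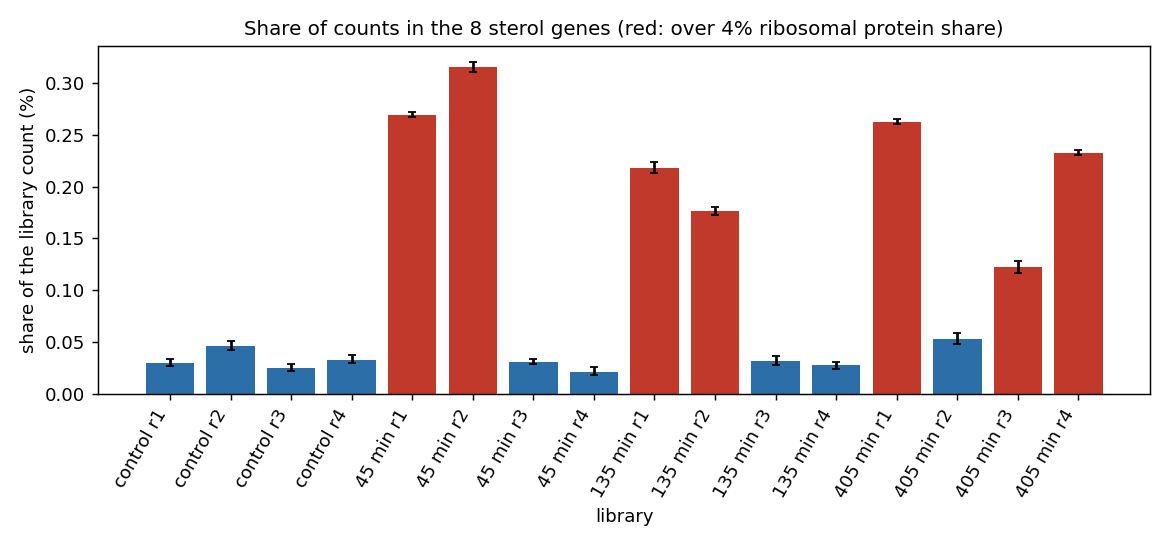
Share of each library's count (%, vertical axis) that fell on the 8 sterol genes, for the 16 libraries; bars are single libraries, red where ribosomal protein genes took over 4% of counts and blue otherwise, with 95% Wilson intervals. The 7 red bars sit between 0.122% and 0.315% and the 9 blue bars between 0.0213% and 0.0531%.

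The enzymes that lead to squalene are described before the later ones. Hmgcs1 encodes the cytosolic HMG-CoA synthase, an early enzyme of the mevalonate pathway. Its level was 36.1, 53.4, 24.7 and 43.9 CPM in control replicates 1 to 4. The 45 min libraries had 684.5, 275.9, 18.4 and 57.7 CPM, those at 135 min had 112.5, 281.0, 85.9 and 7.95, and those at 405 min had 603.9, 49.4, 63.5 and 461.2. All values over 100 CPM came from libraries over 4%, and the groups overlapped with control at each time. On the log2(CPM + 1) scale the control mean was 5.29 ± 0.46 (SD, n = 4), and that of the 405 min libraries was 7.44 ± 1.87 (SD, n = 4). In the 7 libraries over 4% the FPKM of Hmgcs1, a level per length, ranked between the 86.6th and 98.7th percentile of all genes. In the 9 others it ranked between the 26.3rd and 83.8th.

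Idi1 encodes isopentenyl diphosphate isomerase, which interconverts the building blocks of the isoprenoid chain. It had 29.4, 135.8, 46.0 and 42.8 CPM in control. It had 871.1, 1513, 37.4 and 8.01 CPM at 45 min, 1254, 568.4, 63.1 and 87.4 at 135 min and then 420.7, 178.0, 633.8 and 790.6 CPM at 405 min. At 405 min all 4 libraries lay above all 4 controls, also the library under 4% (replicate 2, 137 counts). On the log2(CPM + 1) scale the control mean was 5.76 ± 0.93 (SD, n = 4), and the 405 min libraries averaged 8.79 ± 0.95 (SD, n = 4).

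Fdft1 encodes squalene synthase, the step that commits farnesyl diphosphate to sterols. It had 29.4, 39.5, 40.4 and 24.3 CPM in control and 201.5, 103.3, 49.0 and 24.0 at 45 min. At 135 min it had 60.6, 99.2, 119.2 and 0, and at 405 min 231.6, 44.2, 41.1 and 164.4. The value of 0 (135 min replicate 4) allows up to 3.41 CPM, 3 counts in that library. The 405 min libraries lay above all controls, the lowest of them by less than 1 CPM, and the highest 135 min value came from a library under 4%.

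The later enzymes turn squalene into cholesterol. Sqle, the squalene epoxidase, had 21.5, 63.8, 29.2 and 42.8 CPM in control. It had 285.5, 611.0, 23.1 and 1.60 CPM at 45 min, 409.3, 219.7, 0 and 13.6 at 135 min and then 221.4, 53.3, 171.8 and 150.4 CPM at 405 min. The 0 (135 min replicate 3) allows up to 5.26 CPM, and Sqle overlapped with control at each time. Lss, the lanosterol synthase that closes the sterol rings, had 48.6, 15.1, 16.8 and 37.0 CPM in control. It had 58.7, 61.4, 20.4 and 36.8 CPM at 45 min, 24.7, 43.1, 35.1 and 0 at 135 min and then 145.7, 24.7, 14.4 and 50.2 CPM at 405 min. Of the 7 libraries over 4%, the lowest Lss value (405 min replicate 3, 20 counts) lay below every control.

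Cyp51 encodes the lanosterol demethylase. It had 83.6, 83.6, 40.4 and 65.9 CPM in control and 406.8, 455.2, 60.5 and 48.1 at 45 min. It had 232.4, 422.6, 3.51 and 61.3 at 135 min and then 680.7, 116.9, 223.1 and 554.7 CPM at 405 min. All 405 min libraries lay above all controls, the library under 4% (replicate 2) being the lowest. Dhcr7 encodes the reductase of the last step to cholesterol and had the lowest mean CPM of the 8 in every group. It had 0, 31.3, 18.0 and 26.6 CPM in control, 17.6, 4.58, 12.2 and 1.60 at 45 min, 0, 12.5, 0 and 1.14 at 135 min and then 20.1, 20.8, 8.66 and 3.91 CPM at 405 min. In the libraries over 4% Dhcr7 did not stand above control, and its highest value of 20.1 CPM lay below 2 of the 4 controls. Its 0 in 135 min replicate 1, a library of 3154062 fragments, allows up to 0.951 CPM.

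Insig1, the regulator, had 49.7, 41.8, 32.5 and 45.1 CPM in control, 168.4, 129.2, 87.8 and 35.2 at 45 min, 90.4, 120.3, 8.77 and 101.1 at 135 min and then 303.9, 44.2, 63.5 and 152.4 CPM at 405 min. Its groups overlapped at each time, and among libraries under 4% it had values above all controls in 45 min replicate 3 (129 counts) and 135 min replicate 4 (89 counts). The controls of Insig1 had the smallest spread of the 8 genes, with a mean log2(CPM + 1) of 5.42 ± 0.25 (SD, n = 4).

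**Figure D2:**
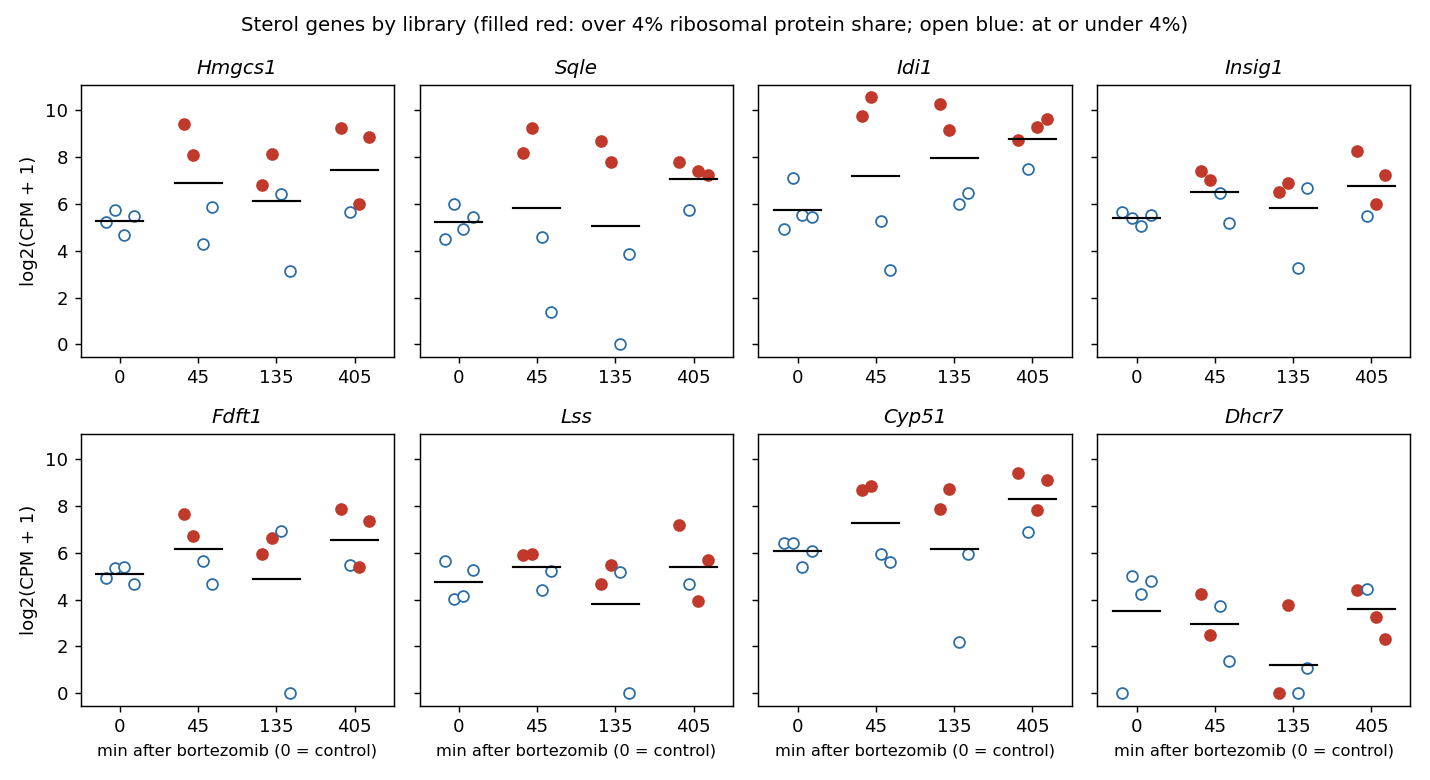
Level of each sterol gene as log2(CPM + 1) (vertical axis) against the time after bortezomib in min (horizontal axis, 0 for control); each point is 1 library, filled red over 4% ribosomal protein share and open blue otherwise, and black lines are means of the 4 libraries. For Idi1, Fdft1 and Cyp51 all 4 libraries at 405 min lie above all 4 controls, and Dhcr7 has the lowest mean in every group.

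Each time was then compared with control. In edgeR's quasi-likelihood test of the 5030 genes with at least 1 count in every library, 4 of the 8 sterol genes were tested (Hmgcs1, Idi1, Insig1 and Cyp51). The other 4 had 0 counts in at least 1 library. At an adjusted p under 0.05, 0 of the 4 were called at any time, against 0.0% of all tested genes. The log2 fold changes at 45 min were 3.14 (SE 1.21) for Hmgcs1, 3.75 (SE 1.46) for Idi1, 1.67 (SE 0.79) for Insig1 and 2.27 (SE 1.13) for Cyp51, with adjusted p from 0.381 to 0.397. At 135 min they were 1.80 (SE 1.15), 3.34 (SE 1.43), 1.15 (SE 0.78) and 1.65 (SE 1.11) in the same order, with adjusted p from 0.513 to 0.594. At 405 min they were 3.30 (SE 1.22), 3.37 (SE 1.43), 2.09 (SE 0.80) and 2.90 (SE 1.16), with adjusted p from 0.285 to 0.288. All 12 values were above 0 and stayed so with RLE factors and with total counts alone. The median over all tested genes was 0.14, 0.16 and 0.11 at the 3 times, and with total counts alone it was -0.18, -0.10 and -0.40. The median of the 4 sterol genes was 2.70, 1.73 and 3.10. The fibroblast markers moved with the groups too: all 7 that were tested had values above 0 at each time, with medians of 3.91, 2.86 and 2.90, and their part in the sterol gene values was not tested.

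Single libraries weighed on these values. Without 45 min replicate 1, Hmgcs1 had 2.08 at 45 min, and without 45 min replicate 2, Idi1 had 2.54 and Cyp51 had 1.55. At 135 min Idi1 had 2.14 without replicate 1 of that time, and without replicate 2 Hmgcs1 had 1.08 and Cyp51 had 0.98. Without 405 min replicate 1, Insig1 had 1.47 at 405 min. All 5 of these treated libraries were over 4%. Without control replicate 2, Idi1 had 4.45, 4.04 and 4.07 at the 3 times. All these values stayed above 0, and no other removal of 1 library of the comparison moved a fold of the 4 genes by over 1.5 times.

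The count of 0 depended on the tool. At an unadjusted p under 0.05, 648 genes differed from control at 45 min, 462 at 135 min and 804 at 405 min, and of the 4 sterol genes 3, 1 and 4 did. These counts rested on single libraries. Leaving out 1 library of the comparison at a time, they ran from 181 (without 45 min replicate 2) to 1050 (without 45 min replicate 3), from 115 (without 135 min replicate 1) to 989 (without 135 min replicate 3) and from 289 (without 405 min replicate 4) to 1222 (without 405 min replicate 2). The sterol genes among them numbered 1 to 4, 0 to 4 and 2 to 4. DESeq2 called 224, 8 and 352 genes (4.45%, 0.159% and 7.0% of those tested), among them Hmgcs1 (adjusted p = 0.0418) and Idi1 (adjusted p = 0.0382) at 45 min and Hmgcs1 (adjusted p = 0.0263) and Cyp51 (adjusted p = 0.0468) at 405 min. Over the 16 other alternatives the adjusted p of these genes ran from 0.190 to 0.999 at 45 min, and at 405 min it was at least 0.0644. The edgeR exact test called 0, 0 and 12 genes, none of them among the 4.

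In an exact permutation test of the mean log2(CPM + 1), which takes in all 8 sterol genes, 0 of 22359 genes had an adjusted p under 0.05 at any time (0.0%). Here 4 libraries against 4 allow no p below 0.0286, so an adjusted p under 0.05 would need most of the genes to reach it. At the 3 times 1130, 2142 and 2260 genes did. The absence of calls in this test therefore says little about the sterol genes. At 405 min Idi1 was higher than control by 3.03, Cyp51 by 2.25 and Fdft1 by 1.46 (each p = 0.0286, adjusted p = 0.283, 2-sided exact permutation test). The differences at 405 min were 2.15 for Hmgcs1 and 1.84 for Sqle (each p = 0.0571, exact), 1.34 for Insig1 (p = 0.0857, exact), 0.62 for Lss (p = 0.514, exact) and 0.09 for Dhcr7 (p = 0.943, exact). For 3 of the 8 genes all 405 min libraries lay above all controls, against 2.68% of all genes (600 genes). At 45 and 135 min this held for 0 of the 8, against 0.698% and 0.729% of all genes. On this scale, without TMM factors, the median over all 22359 genes was -1.02, -1.10 and -0.97 at the 3 times. Of the 8 genes, 7 were higher than control in mean at 45 min and 4 at 135 min, where Sqle and Fdft1 changed sign with TMM factors. The smallest exact p among the 8 was 0.114 at 45 min (Insig1) and 0.143 at 135 min (Idi1).

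Within the 9 libraries at or under 4%, the treated groups were nearer to control. The same 4 sterol genes were tested there among 8366 genes, and none was called, against 0.0% of all genes at 45 and 135 min and 0.0239% at 405 min. Against control at 45 min (2 libraries against 4), the log2 fold changes were -0.08 (SE 0.79) for Hmgcs1, -1.39 (SE 0.73) for Idi1, 0.57 (SE 0.74) for Insig1 and -0.32 (SE 0.74) for Cyp51. At 135 min (2 libraries) they were 0.03 (SE 0.79), 0.16 (SE 0.68), 0.37 (SE 0.75) and -1.06 (SE 0.77). At 405 min a single library was left, assumed to vary like the other groups, where the values were 0.33 for Hmgcs1, 1.496 for Idi1 (95% interval -0.19 to 3.18), 0.07 for Insig1 and 0.78 for Cyp51. The intervals were wide and at 45 min reached from -1.77 to 1.61 for Hmgcs1. The 4 treated libraries at 45 and 135 min in this fit are those in which Hspa1b lay at about the control level. In them Hsph1 (43.5 to 105.2 CPM) lay above all controls, and Dnajb1 and Hmox1 had values on both sides of the highest control. In the single 405 min library Hspa1b (1292 CPM) and Hsph1 (205.3 CPM) lay above all controls. Dnajb1 (49.4 CPM) and Hmox1 (29.9 CPM) lay within the control range there. In control replicates 1 to 3 most sterol genes lay near the level of the receptor genes. A value near 0 here therefore does not show that the drug left these genes unchanged.

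The course over time was read in the 7 libraries over 4%, which hold no control. Of 8605 genes tested, 0 were called between 45 and 135, 135 and 405 or 45 and 405 min (0.0%, edgeR quasi-likelihood test), with 141, 286 and 616 genes at an unadjusted p under 0.05. DESeq2 called 3, 0 and 62. Of the 8 sterol genes 7 were tested, all except Dhcr7, and 0 of the 7 were called by either tool or had an unadjusted p under 0.05 in edgeR's test. Between 45 and 405 min Sqle had an unadjusted p of 0.049 in DESeq2's test (adjusted p = 0.421). With total counts alone in edgeR, 1 of the 7 had an unadjusted p under 0.05 in that comparison. Comparing 135 with 45 min, all 7 log2 fold changes were below 0, from -1.44 (SE 0.997) for Hmgcs1 to -0.44 (SE 0.83) for Idi1. Insig1, Fdft1 and Lss had both 135 min libraries below both 45 min libraries, against 13.3% of all tested genes. The median over the 7 was -0.62, against -0.07 over all tested genes. All 9 fibroblast markers were also below 0 in this comparison, with a median of -1.01. Between 45 and 405 min 8 of the 9 were below 0 (median -1.48), and from 135 to 405 min 7 of the 9 (median -0.66). Their part in the sterol gene courses was not tested.

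From 135 to 405 min the values had both signs. The log2 fold changes were 1.18 (SE 0.84) for Lss, 1.13 (SE 0.93) for Hmgcs1, 1.03 (SE 0.75) for Fdft1, 0.84 (SE 0.69) for Insig1 and 0.74 (SE 0.69) for Cyp51. For Idi1 and Sqle they were -0.49 (SE 0.75) and -0.75 (SE 0.64). Between 45 and 405 min, Sqle had -1.33 (SE 0.64, 95% interval -2.75 to 0.10, adjusted p = 0.691) and Idi1 -0.93 (SE 0.75, 95% interval -2.59 to 0.73, adjusted p = 0.747). For both genes all 3 libraries at 405 min lay below both at 45 min, against 15.9% of all tested genes. The other 5 lay between -0.31 and 0.22, with intervals that reached from -2.28 to 1.99. These widths leave a 2-fold difference in either direction possible for each of the 5. Dhcr7, at 0 in 135 min replicate 1, got a value between 45 and 405 min with no filter on low counts (-0.31, SE 2.04), with edgeR's filterByExpr (-0.30, SE 2.04) and without that library (-0.07, SE 1.05).

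**Figure D3:**
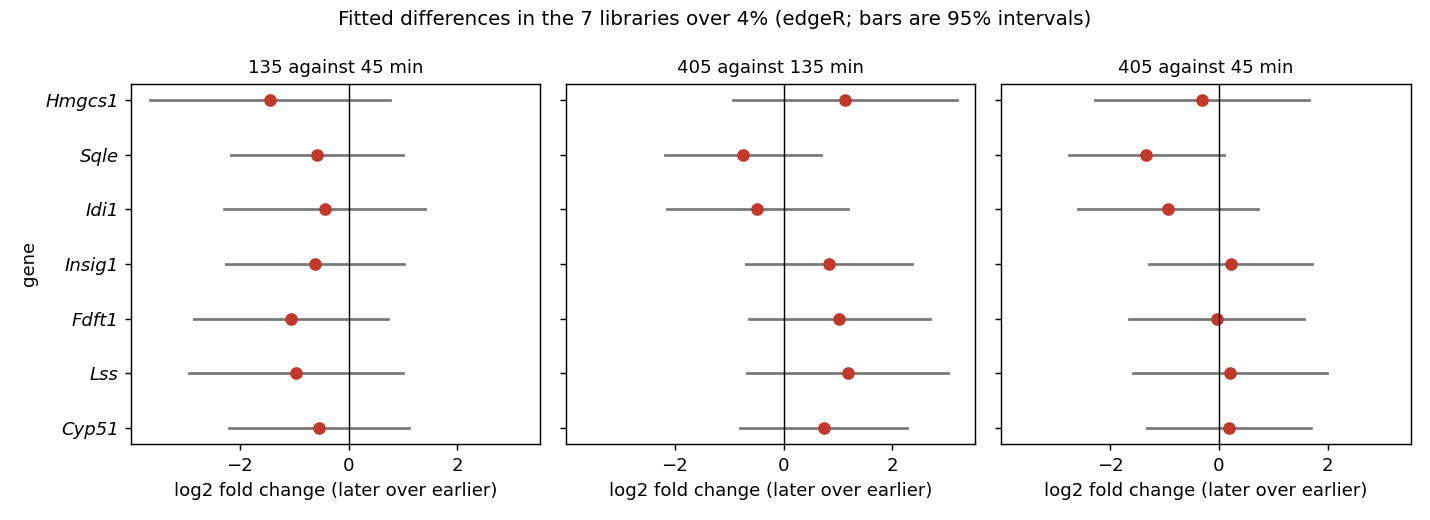
Log2 fold change (horizontal axis, later over earlier time) of the 7 tested sterol genes in the libraries over 4% ribosomal protein share, with 95% intervals from edgeR's quasi-likelihood fit as bars. All 21 intervals of this fit of 7 libraries include 0; Sqle between 45 and 405 min comes nearest to excluding it, at -2.75 to 0.10.

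Single libraries weighed on these courses. Without 405 min replicate 3, the library with the lowest ribosomal protein share of the 7 (4.25%), the 405 against 135 min values were 1.63 for Hmgcs1, 1.47 for Fdft1, 1.64 for Lss, 1.23 for Insig1 and 1.09 for Cyp51. In that fit the intervals of Hmgcs1 (0.10 to 3.16), Fdft1 (0.17 to 2.76) and Lss (0.21 to 3.07) excluded 0 before adjustment, each with an adjusted p of 0.450. They were among 934 of 8778 genes at an unadjusted p under 0.05, and 0 were called. Other removals took the same values towards 0. Without 405 min replicate 1, Lss had 0.22 and Insig1 0.27, and without 135 min replicate 1, Cyp51 had 0.46 and Hmgcs1 0.69. Sqle ran from -1.23 without 135 min replicate 2 to -0.07 without 135 min replicate 1, where Idi1 turned to 0.36. The 286 genes at an unadjusted p under 0.05 became 6 without 135 min replicate 1 and 1164 without 135 min replicate 2. The Sqle value between 45 and 405 min ran from -1.80 to -0.60 over the 5 fits that each left out 1 library, so it kept its sign. It lay nearest to 0 without 45 min replicate 2, the library with the highest Sqle level. The Idi1 value ran from -1.30 to -0.42.

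The division of counts among the 8 genes also differed between the libraries over 4%. Idi1 had 11.1 times the counts of Hmgcs1 in 135 min replicate 1, 9.98 times in 405 min replicate 3 and 5.48 times in 45 min replicate 2. In the other 4 libraries over 4% the ratio was 0.697 to 2.02, lowest in 405 min replicate 1. Idi1 and Sqle together held 76.2%, 66.0% and 67.4% of the sterol gene counts in the first 3 of these libraries, and 24.4% to 44.6% in the other 4. Each time point had at least 1 library of either kind, so the split ran across the groups. Per length, Idi1 had the highest FPKM of the 8 in 6 of the 7 libraries, and Hmgcs1 in 405 min replicate 1. Lss and Dhcr7 were the lowest 2 in all 7.

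**Figure D4:**
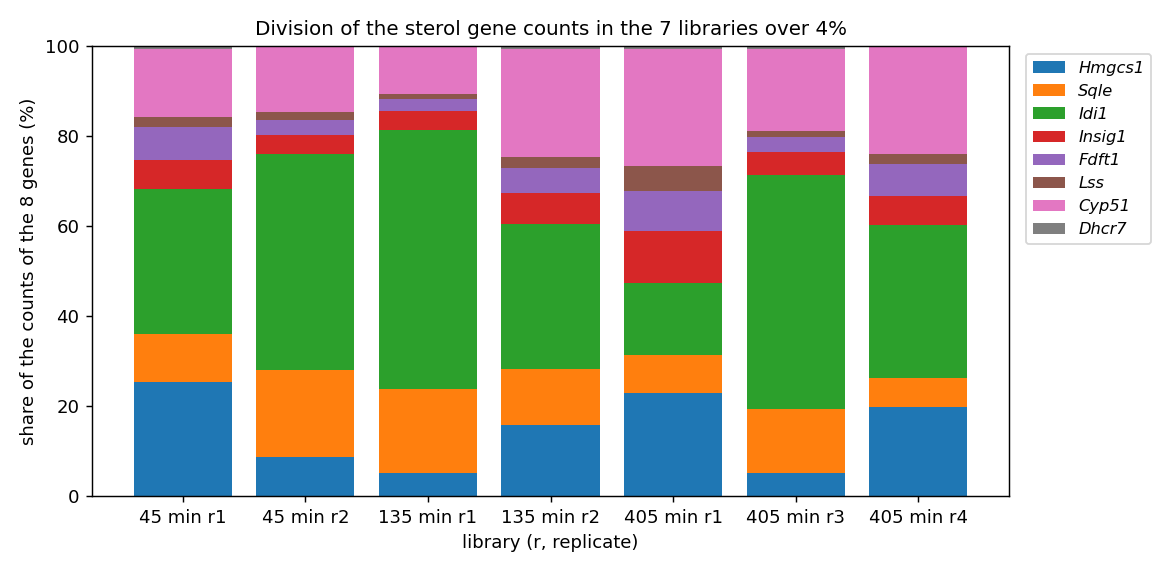
Share of the summed counts of the 8 sterol genes (%, vertical axis) held by each gene, as stacked bars for the 7 libraries over 4% ribosomal protein share (r, replicate). Idi1 holds 57.4% in 135 min replicate 1 and 16.01% in 405 min replicate 1, and Hmgcs1 5.15% and 23.0%.

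Across these 7 libraries, which come from 1 cell line and differ in depth, log2(CPM + 1) of Hmgcs1 went with that of Fdft1 (Pearson r = 0.988) and that of Insig1 with Lss (r = 0.976). Among Hmgcs1, Fdft1, Lss, Cyp51 and Insig1 every pair had r of at least 0.88. Sqle and Idi1 went with each other (r = 0.770) and not with those 5 genes (r from -0.378 to 0.110). Dhcr7 had r from 0.483 to 0.520 with the 5, -0.391 with Sqle and -0.686 with Idi1. It also had the largest SD of log2(CPM + 1) of the 8 (1.52), so the mean of the 8 joins genes of unlike courses. These are descriptions over 7 points. The genes whose level was most like the mean of the 8 over these libraries, among 9384 genes with a mean of at least 10 CPM, were Tmsb10 (r = 0.988), Lztr1 (r = 0.986), Ifitm3 (r = 0.982), Il6st (r = 0.979) and Tmbim6 (r = 0.977). None of them is in the pathway lists.

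The rest of the pathway was read from lists of 49 further genes found in the tables, of which 23 were tested over all libraries and 37 in those over 4%. In both sets of edgeR fits 0 were called in any comparison, against 0.0% of all tested genes. At 405 min, where DESeq2 called 7.0% of all tested genes, its calls included Sc5d, a sterol desaturase (log2 fold change 2.89, adjusted p = 0.0279), and Npc2, which moves cholesterol out of lysosomes (3.06, adjusted p = 0.0140). Both are named after their values were seen. In edgeR's quasi-likelihood test each had an adjusted p of 0.285. In the single 405 min library at or under 4% their values were 0.92 and 0.67. Relative to control, log2 fold changes were above 0 for 19 of the 23 at 45 min, for 17 at 135 min and for 22 at 405 min, beside 54.9%, 56.2% and 53.1% of all tested genes. With total counts alone these numbers were 17, 14 and 18, against 41.9%, 45.6% and 37.9% of all tested genes. The median over the 23 was 1.005, 0.63 and 1.33, against 0.14, 0.16 and 0.11 over all tested genes. The 5 tested genes from lanosterol to cholesterol ranged from 1.10 to 3.02 at 405 min. The 3 tested genes of SREBP control ranged from 0.28 to 0.73 at 405 min. The 5 of sterol uptake and transport ranged from -1.20 to 3.20, and the 7 fatty acid targets of SREBP from 0.23 to 2.37. None of the 8 genes of the oxysterol-sensing LXR list was tested over all libraries.

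In the libraries over 4%, log2 fold changes were above 0 for 6 of the 37 from 45 to 135 min and for 30 from 135 to 405 min, beside 46.3% and 57.0% of all tested genes. The medians were -0.65 and 0.80, beside -0.62 and 0.84 for the 7 sterol genes. From 45 to 405 min 22 of the 37 were positive, with a median of 0.06, against 55.7% and 0.14 over all tested genes. The 6 tested genes from acetyl-CoA to the isoprenoid diphosphates ranged from -0.46 to 0.63 there, the 6 from lanosterol to cholesterol from -1.23 to 0.20, the 5 of SREBP control from -1.85 to 1.68, and the 8 of uptake and transport from -0.41 to 2.19. The 10 fatty acid targets ranged from -1.03 to 1.63 and the 2 LXR list genes from -0.12 to 0.04. These comparisons share their libraries at each time, so the negative and the positive median are not independent of each other.

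Over all 16 libraries, the 405 min group was also compared with the 45 min group. The log2 fold changes were 0.16 (SE 1.11) for Hmgcs1, -0.38 (SE 1.30) for Idi1, 0.42 (SE 0.76) for Insig1 and 0.63 (SE 1.08) for Cyp51, each with an adjusted p of 0.9997. No gene of the 5030 was called (0.0%), with 89 at an unadjusted p under 0.05. DESeq2 called 5 genes and the edgeR exact test called 1.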

How the data were processed

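RNA was sequenced from 16 libraries, grouped by the time in the sample titles. Each library has a table that the authors deposited, holding estimated counts (raw fragments per gene) and FPKM values. The study's methods name mm9, RefSeq and DNAnexus, and the labels name mm10. The aligner and its version are not given in the sources used here. Between 98.7% and 99.8% of counts were whole (tolerance 0.001), and all were rounded. In 1 table, 27 symbols turned into dates were restored from the shared row order. No 2 libraries held identical values.

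Counts were tested with edgeR 4.0.16 (quasi-likelihood, TMM, R 4.3.3, Benjamini-Hochberg over all genes tested, threshold 0.05), with 1 mean per group and genes with at least 1 count in every library. DESeq2 1.42.0 was an alternative. The SE of a log2 fold change was taken as its size over the root of F. CPM used the total assigned count. FPKM served to rank levels within a library and to set sterol genes against the receptor genes of the same library. Its effective lengths differed between some libraries, a limit of ratios pooled over libraries. Libraries were also fitted by ribosomal protein share (over 4%, or at or under it). Exact permutation tests ran on log2(CPM + 1), over the 70 splits of 8 libraries. In simulated counts with 200 genes changed 4-fold, all 200 were recovered at a dispersion of 0.05 (405 min against control, 5029 genes; 405 against 45 min over 4%, 8601 genes). False calls at the dispersion of 0.05 numbered 16 and 9. At the fitted dispersion, 1 of 189 and 0 of 200 were recovered. The simulation drew all libraries from 1 mean profile, without the difference in ribosomal protein share, so its recovery need not hold for these data.

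The sterol genes and all lists were chosen with earlier results of these data known. The genes named by rule are the 8, 4 treatment check genes and the 5 most like the mean of the 8. The rule also took list genes called in edgeR's quasi-likelihood test over all libraries or those over 4% (none was). Sc5d and Npc2, called by DESeq2 alone, are named outside this rule. Results on 1 list gene are not reported here. Replicate numbers are shared between groups. For genes with a count in every library, the mean of the group was subtracted from log2(CPM + 1). These deviations correlated between same-numbered libraries with r from -0.76 to 0.61 (24 pairs, 14 over 0.1). The numbers were therefore not taken to pair libraries.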

Additional observations from a re-analysis of the deposited data

Results flagged for a closer look

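For the 8 sterol genes, the ribosomal protein share and the share of counts in the sterol genes, Dixon's ratio was taken at both ends of every group of 4 libraries and set against its 95% critical value. Of 40 groups 4 exceeded it, and chance gives about 1 in 20, or 2 of 40. Each case was a library far below the other 3 of its group, and each such library was at or under 4% ribosomal protein share.

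Insig1 had a log2(CPM + 1) of 3.29 in 135 min replicate 3, and the other 3 libraries had 6.51 to 6.92. Fdft1 had 0.00 in 135 min replicate 4, beside 5.94 to 6.91. Lss had 0.00 in the same library, beside 4.69 to 5.46. Dhcr7 had 0.00 in control replicate 1, beside 4.24 to 5.02.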

How the results depend on the processing

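The cause of each change was not tested. The fit with no filter in libraries over 4% was chosen after seeing the data. Counts of 0 stayed at 0 with RLE factors, total counts alone, fits of only the 2 groups, share over 6%, the replicate block and every fit without 1 library. They also stayed at 0 in the exact permutation alternatives, where the smallest p allowed leaves little room for a call. The fit with share over 6% is the same as the fit without 405 min replicate 3. With the replicate number as a block, 0 genes were called in each comparison. The numbers were not taken to pair the libraries, and in deviations from group means the own number correlated best in 4 of 24 pairs. DESeq2 called 224 genes at 45 min, 8 at 135 min, 352 at 405 min and 5 between 405 and 45 min. In libraries over 4% it called 3 (135 against 45 min) and 62 (405 against 45 min). The edgeR exact test called 12 at 405 min and 1 between 405 and 45 min. With filterByExpr and with no filter, 1 gene was called at 405 min and 2 between 405 and 45 min. In libraries over 4%, filterByExpr called 4 (405 against 135 min) and 6 (405 against 45 min), and no filter called 3, 8 and 16. Libraries at or under 4% gave 2 at 405 min.

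Of the log2 fold changes of the sterol genes, 4 changed side of the threshold, all with DESeq2, and none lost a call. In libraries at or under 4%, signs reversed for Hmgcs1 (-0.0825), Idi1 (-1.39) and Cyp51 (-0.32) at 45 min and for Cyp51 (-1.06) at 135 min. The replicate block reversed Idi1 between 405 and 45 min (1.60) and, over 4%, Hmgcs1 (0.21) and Fdft1 (0.42). Share over 6%, the fit without 405 min replicate 3, also reversed Hmgcs1 and Fdft1 (0.19 and 0.41). Leaving out 1 library at a time, 405 against 45 min ran from -0.35 to 1.17 for Hmgcs1, -0.89 to 0.76 for Idi1 and -0.20 to 0.74 for Insig1. Over 4% it ran from -0.76 to 0.45 for Hmgcs1, -0.35 to 0.62 for Insig1, -0.42 to 0.49 for Fdft1, -0.75 to 0.68 for Lss and -0.0469 to 0.54 for Cyp51. For 135 against 45 min it ran from -1.32 to 0.14 for Sqle and -1.35 to 0.11 for Idi1, and for 405 against 135 min from -1.04 to 0.36 for Idi1. On the log2(CPM + pseudocount) scale, a pseudocount of 5 and TMM factors turned Sqle (0.39 and 0.27) and Fdft1 (0.27 and 0.18) at 135 min, and a pseudocount of 5 turned Dhcr7 (-0.19) at 405 min. Depth limits the 9 libraries at or under 4%, where 3 counts are worth 2.04 to 5.26 CPM, and 405 min replicate 3, where they are worth 2.17 CPM, more than the other 6 over 4% (0.151 to 0.951 CPM).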
